A study of Mus musculus with 9 samples.

Results

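The comparison set CD48− cells against CD48+ cells within the CD201+CD150+ KSL gate of cultured mouse haematopoietic stem cells (HSCs). It used 6 of the 9 RNA-seq libraries of the series, 3 of CD201+CD150+CD48−KSL cells and 3 of CD201+CD150+CD48+KSL cells, chosen by the sort labels alone, and all genes of the count table. KSL cells are Kit+, Sca-1+ and lineage marker-negative. Both groups were wild-type C57BL/6 bone marrow cells that had been sorted as CD34−CD150+KSL HSCs and grown in F12 medium with 0.1% polyvinyl alcohol (PVA), insulin-transferrin-selenium, thrombopoietin at 100 ng/ml and stem cell factor at 10 ng/ml, so neither group is uncultured. The series' design text gives 10 days of culture, whereas the growth protocol gives one week. Over 5000 cells per population were sorted again after culture and lysed as a pool, so each library averages many cells. The animals' age, and whether the replicates came from separate animals or cultures, are not stated in the labels. If they did not come from separate ones, the p-values below measure a spread that may be technical. In the text CD48− and CD48+ stand for the CD201+CD150+KSL populations without and with CD48.

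Procr encodes CD201, a receptor for protein C on endothelium and HSCs, and surface CD201 enriches for HSCs in fresh marrow and in culture. CD150 (Slamf1) and CD48 belong to the SLAM family of immune receptors. In fresh mouse marrow CD150+CD48− KSL cells hold the long-term repopulating HSCs, and gain of CD48 marks multipotent progenitors. Long-term HSCs divide rarely, and a fraction of them carries platelet transcripts such as Vwf and lies closest to the megakaryocyte branch. Thrombopoietin, the main cytokine of the cultures, acts on HSCs and on megakaryocytes.

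The 6 libraries held 3810123 to 7072885 counts, with 14890 to 17845 genes counted at least once. Levels are given as counts per 1000000 (CPM), with library sizes scaled by the trimmed mean of M-values, as the values of replicates 1, 2 and 3 or as mean ± SD (n = 3). A log2 fold change (log2FC) is the CD48− level over the CD48+ level, fitted by edgeR and given ± its SE, and is positive where the gene was higher in CD48− cells. The first principal component of the tested genes carried 66.4% of the variance and separated the groups, with the CD48− libraries at 23.48 to 24.66 and the CD48+ libraries at −25.41 to −23.01. No library lay apart from its group on that axis. A gene was called where the adjusted p of edgeR's quasi-likelihood test, Benjamini-Hochberg corrected over 11527 tested genes, was under 0.05.

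The antigens used for sorting came first, since their genes test the labels. Cd48 stood at 6.4, 6.53 and 5.28 CPM in the CD48− libraries and 77.9, 89.9 and 91.2 CPM in the CD48+ libraries (log2 fold change −3.82 ± 0.13, adjusted p = 9.41e-29), in the direction of the gate. Its levels did not overlap, and since CD48 defined the groups this difference is no finding. Procr, which was gated as positive in both groups, measured 69.5, 61.7 and 65.2 CPM in the CD48− libraries and 28.4, 24.8 and 29.1 CPM in the CD48+ libraries. All 3 CD48− libraries lay above all 3 CD48+ libraries, a 2.38-fold difference (log2 fold change 1.25 ± 0.10, adjusted p = 6.29e-15). Slamf1, also gated alike, measured 58.7, 59.1 and 60.9 against 49.1, 61.0 and 54.8 CPM, the groups overlapped, and the gene was not called (log2 fold change 0.12 ± 0.09, adjusted p = 0.337). Kit did not pass either at 527 ± 27.8 against 485 ± 15.1 CPM (log2 fold change 0.12 ± 0.05, adjusted p = 0.076), and it passed with library size as the only scaling (adjusted p = 0.0168). Ly6a, which encodes Sca-1, stood at 24.1, 20.6 and 22.5 against 14.4, 19.2 and 16.2 CPM and was called higher (log2 fold change 0.45 ± 0.13, adjusted p = 0.008). The Ly6a call was lost with DESeq2, with all 9 libraries in the fit and without CD48− replicate 1 (adjusted p from 0.0675 to 0.161).

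Of the 11527 genes, 29.0% were called: 1763 (15.3%) were higher and 1576 (13.7%) lower in CD48− cells. The balance changed with the size of the difference. At 2-fold or more 381 genes (3.31%) were higher and 55 (0.477%) were lower. The median log2 fold change of all tested genes was −0.0054, and 40.9% of them had replicate values that did not overlap between the groups. Gene list counts below are to be read against these shares. Genes with few counts in both groups were not tested, and one that passed the count filter only through the group where it was high had to differ. Such genes occur in several of the lists below, and their calls enter the list counts. Counts and medians of lists with many untested members describe the tested part.

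**Figure D1:**
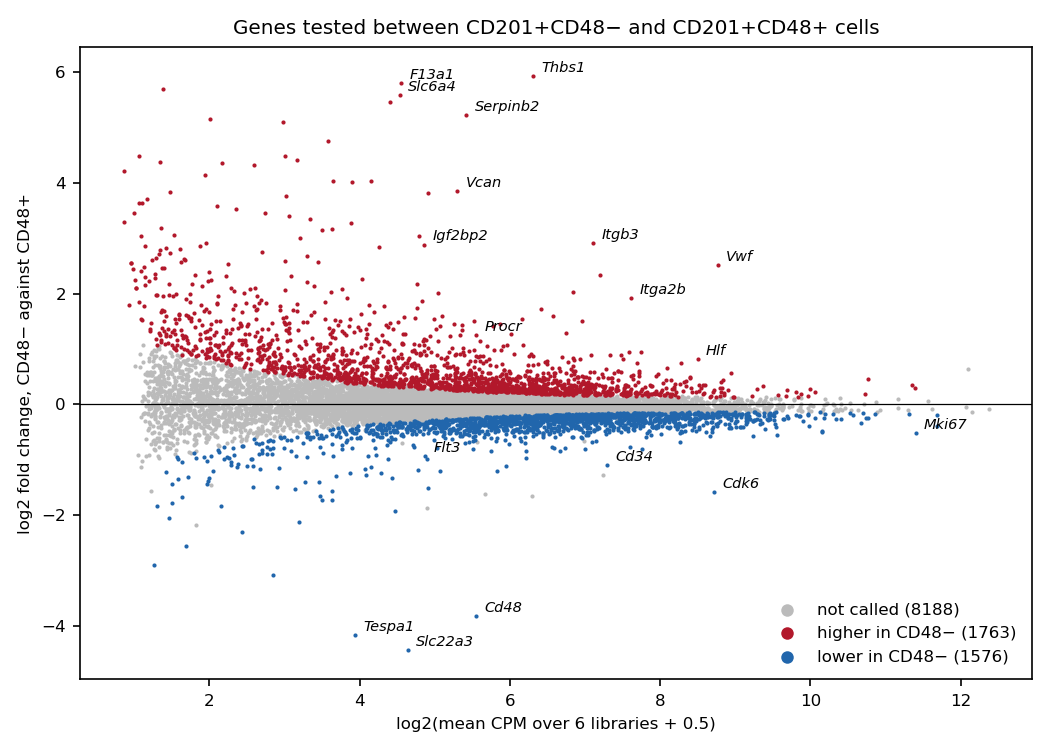
Each point is 1 of 11527 tested genes, with the mean level over 6 libraries on the x axis (log2 CPM) and the log2 fold change of CD48− against CD48+ cells on the y axis. Red points were called higher in CD48− cells (1763) and blue points lower (1576), and more red than blue points lie beyond a 2-fold difference.

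The 15 genes with the largest differences in favour of CD48− cells were taken from called genes whose CD48− mean reached 10 CPM and whose groups did not overlap, leaving out predicted and clone symbols. Lower-count genes such as H19 and Gata1 are outside this ranking. Thbs1 (chromosome 2, 118111876 to 118127133 in GRCm38.p6), which encodes the adhesive glycoprotein thrombospondin 1 of platelet alpha granules, measured 189, 137 and 139.9 CPM in the CD48− libraries and 2.66, 3.13 and 1.99 CPM in the CD48+ libraries. The lowest CD48− library lay far above the highest CD48+ library (log2 fold change 5.93 ± 0.20, adjusted p = 4.45e-11). F13a1 (chromosome 13, 36867178 to 37050244), the A subunit of clotting factor XIII, measured 51.5, 48.3 and 35.4 against 1.06, 0.587 and 0.712 CPM (log2 fold change 5.80 ± 0.23, adjusted p = 3.45e-25). Slc6a4 (chromosome 11, 76998597 to 77032343), the serotonin transporter that loads platelets, measured 46.2, 45.7 and 41.3 against 1.6, 0.587 and 0.57 CPM (log2 fold change 5.59 ± 0.21, adjusted p = 9.25e-27). Both genes were near 1 CPM in the CD48+ libraries and above 30 CPM in every CD48− library. Ltbp1 (chromosome 17, 75005480 to 75392512), which tethers latent TGF-beta to the matrix, measured 47.9, 39.5 and 33.99 against 0.887, 0.782 and 0.997 CPM (log2 fold change 5.47 ± 0.22, adjusted p = 1.53e-25). Serpinb2, the plasminogen activator inhibitor type 2, measured 84.1, 86.2 and 77.2 against 1.24, 2.93 and 2.42 CPM (log2 fold change 5.22 ± 0.16, adjusted p = 8.89e-31). The remaining 10 of these 15 were Gp6, Clec1b, Cd226, Serpinb10, Pde3a, Ndnf, Ppbp, Parvb, Vcan and Mrvi1, with log2 fold changes from 3.81 for Mrvi1 to 5.10 for Gp6. Cd226 is an adhesion receptor, Pde3a a cyclic nucleotide phosphodiesterase of platelets, Parvb a focal adhesion protein and Mrvi1 a target of cGMP-dependent kinase. None of these 15 genes overlapped between the groups, which the naming rule required.

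Past 2-fold, genes in the opposite direction were fewer. Slc22a3 (chromosome 17, 12419972 to 12507704), an organic cation transporter, measured 1.46, 2.87 and 2.3 CPM in the CD48− libraries and 48.4, 44.4 and 47.01 CPM in the CD48+ libraries (log2 fold change −4.44 ± 0.18, adjusted p = 1.76e-25). Tespa1 (chromosome 10, 130322826 to 130363469), an adaptor of antigen receptor signalling in thymocytes, measured 1.1, 1.57 and 2.07 against 29.3, 28.9 and 26.4 CPM (log2 fold change −4.17 ± 0.22, adjusted p = 3.79e-21). Besides Cd48, these were the ones of the 15 chosen by the same rule, with the mean taken in CD48+ cells, that were lower by more than 10-fold. Cdk6 (chromosome 5, 3341004 to 3531008), the G1 kinase that partners with D-type cyclins, measured 216, 194 and 221 CPM in the CD48− libraries and 653, 598 and 638 CPM in the CD48+ libraries. That was 2.99-fold lower in CD48− cells, with tight replicates (log2 fold change −1.58 ± 0.06, adjusted p = 1.71e-27). Cd34 (chromosome 1, 194938821 to 194961292), the sialomucin whose absence had been used to isolate the starting HSCs, measured 94.5, 108 and 98.1 against 213, 216 and 212 CPM (log2 fold change −1.10 ± 0.06, adjusted p = 2.87e-19), so both cultured groups carried the transcript and CD48− cells had less of it. Cd244, the SLAM family receptor that binds CD48, measured 5.85, 7.32 and 5.05 against 17.9, 16.2 and 19.1 CPM (log2 fold change −1.57 ± 0.18, adjusted p = 9.99e-10). The transcription factor Runx3 was lower at 33.96 ± 0.42 against 78.3 ± 8.72 CPM (log2FC −1.21, adjusted p = 6.43e-15), as were Nlrc3, a brake on innate signalling, at 8.92 ± 0.843 against 34.3 ± 2.73 CPM (log2FC −1.93, adjusted p = 8.22e-16), the fungal and mycobacterial lectin receptor Clec4e at 15.3 ± 1.66 against 43.8 ± 3.58 CPM (log2FC −1.51, adjusted p = 2e-14) and Serpinb1a, an inhibitor of neutrophil proteases, at 38.9 ± 3.66 against 84.1 ± 5.33 CPM (log2FC −1.12, adjusted p = 1.62e-14). Dnajc6, Trf, Pdgfrb, Zfp462, Bin1, Steap3, Bex6 and Clnk completed the 15, with log2 fold changes from −3.09 for Dnajc6 to −1.39 for Clnk. Cd34, Runx3 and Serpinb1a, with smaller differences, are not among these 15.

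Of 37 megakaryocyte and platelet genes, 33 had enough counts to be tested, 29 of these were higher in CD48− cells and 0 lower, and 20 differed by at least 2-fold. Their median log2 fold change was 1.70 against −0.0054 for all tested genes. Some of the higher genes passed the count filter only through the group where they were high. Examples are F2rl2 (47 counts in CD48− and 9 in CD48+ libraries), Sdpr (56 and 1) and Gp1bb, given below. Adhesion receptors of the platelet surface were among the 29 higher genes. Itga2b (chromosome 11, 102453297 to 102469883), the integrin alpha IIb chain CD41, measured 311, 302 and 314 CPM in the CD48− libraries and 89.9, 79.8 and 76.1 CPM in the CD48+ libraries (log2 fold change 1.92 ± 0.06, adjusted p = 8.3e-29). Itgb3 (chromosome 11, 104608000 to 104670476), its partner beta 3 chain, measured 290.1, 215 and 226 against 30.9, 32.6 and 33.5 CPM (log2 fold change 2.92 ± 0.11, adjusted p = 1.31e-11). Neither chain overlapped between the groups. Gp6, the collagen receptor, stood at 14.4 ± 1.38 against 0.397 ± 0.275 CPM (log2 fold change 5.10 ± 0.34, adjusted p = 4.26e-17), and Clec1b, the podoplanin receptor, at 21.9 ± 0.718 against 0.835 ± 0.494 CPM (log2 fold change 4.76 ± 0.26, adjusted p = 4.4e-20). For the von Willebrand factor receptor complex, the members Gp1ba (log2FC 1.58, adjusted p = 1.15e-13), Gp5 (log2FC 3.40, adjusted p = 2.37e-14) and Gp9 (log2FC 1.70, adjusted p = 4.88e-08) were all higher. Its Gp1bb chain had 34 counts in the CD48− libraries together and 2 in the CD48+ libraries, a ratio per scaled count of 22.1 with an exact 95% binomial counting interval of 5.67 to 190. In these bulk libraries, fewer cells of a type and less RNA per cell cannot be told apart, so a platelet transcript may come from a few cells or from many.

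Of the platelet genes for secreted and granule products, Mmrn1, multimerin 1, was not called (log2FC 0.05, adjusted p = 0.609). Vwf (chromosome 6, 125552948 to 125686679), the carrier of clotting factor VIII and bridge between platelets and collagen, measured 793, 710.0 and 718 CPM in the CD48− libraries and 141, 122 and 125 CPM in the CD48+ libraries, a 5.72-fold difference with no overlap (log2 fold change 2.52 ± 0.06, adjusted p = 1.35e-34). Pf4, platelet factor 4, measured 229, 258 and 248 against 38.5, 57.1 and 50.6 CPM (log2 fold change 2.33 ± 0.09, adjusted p = 6.43e-15), and Ppbp, the precursor of platelet basic protein, measured 31.4, 32.1 and 34.5 against 1.24, 2.54 and 2.14 CPM (log2 fold change 4.03 ± 0.19, adjusted p = 1.05e-22). The clotting cofactor F5 stood at 129 ± 22.2 against 39.9 ± 6.02 CPM (log2FC 1.72, adjusted p = 2.82e-05), the growth factor gene Pdgfb at 7.99 ± 2.42 against 2.03 ± 0.569 CPM (log2FC 2.01, adjusted p = 2.91e-07) and the protease inhibitor Serpine2 at 17.8 ± 1.58 against 3.003 ± 0.277 CPM (log2FC 2.58, adjusted p = 1.27e-14). Rab27b, which drives granule secretion, was higher at 183 ± 7.01 against 64.3 ± 2.98 CPM (log2FC 1.51, adjusted p = 2.11e-23), and so was P-selectin, Selp, at 132 ± 6.49 against 73.7 ± 4.69 CPM (log2FC 0.85, adjusted p = 1.3e-13). Thrombin and thromboxane signalling was represented by F2r (log2FC 0.35, adjusted p = 1.87e-06), F2rl2 (log2FC 2.72, adjusted p = 9.34e-06), Tbxa2r (log2FC 0.77, adjusted p = 2.59e-05) and Tbxas1 (log2FC 0.60, adjusted p = 2.29e-09), all called higher.

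Not every member passed. The transcription factor Nfe2, required for platelet release, stood at 248 ± 2.89 against 241 ± 9.72 CPM and was not called (log2FC 0.04, adjusted p = 0.64). Nor were Mmrn1 (log2FC 0.05, adjusted p = 0.609), the thrombin receptor F2rl3 (log2FC 0.23, adjusted p = 0.0995) and the ADP receptor P2ry1 (log2FC 0.53, adjusted p = 0.101). Among the untested members, Treml1 had 33 counts in CD48− and 4 in CD48+ libraries, Tubb1 had 25 and 9, and P2ry12 had 1 and 1. Gata1 (chromosome X, 7959260 to 7976663), the transcription factor of megakaryocytes and red cells, measured 4.21, 3.92 and 4.82 CPM in the CD48− libraries and 0.177, 0 and 0.57 CPM in the CD48+ libraries (log2 fold change 3.83 ± 0.51, adjusted p = 5.21e-08). It was near 0 in every CD48+ library, with 59 counts in CD48− and 5 in CD48+ libraries. The gene thus passed the count filter only through the group where it was high.

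**Figure D2:**
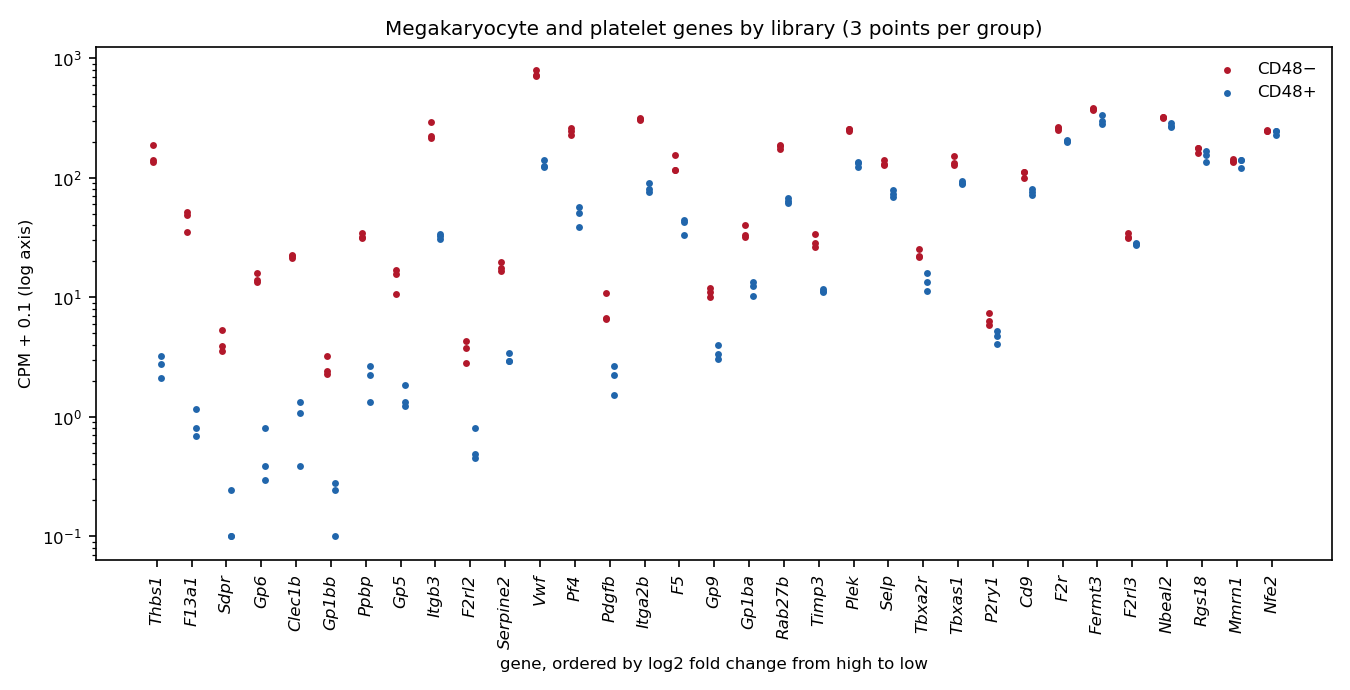
Points give the CPM + 0.1 of each library on a log axis for the 33 tested megakaryocyte and platelet genes, ordered on the x axis by log2 fold change, with 3 CD48− libraries in red and 3 CD48+ libraries in blue. The red points lie apart from the blue points over most of the plot and meet them at the right end, where Mmrn1 and Nfe2 stand.

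Promoters were read for a GATA site (AGATAA on either strand), a motif chosen after the values were seen. It occurred in the window from 250 bases before to 50 after the start in 6 of 25 tested platelet genes with an entry in the RefSeq promoter table (24%) and in 7.67% of the 8874 tested genes with an entry. By call, 5 of 22 higher members and 1 of 3 not called held it. Shown are the 100 bases before the start of 2 of the 5 higher genes with a match, Gp5 (chr16:30310782-30310881, minus strand) and F2rl2 (chr13:95696820-95696919, plus strand), from RefSeq on GRCm38.p6, 5′ to 3′ toward the gene, with matches in capitals.
Gp5: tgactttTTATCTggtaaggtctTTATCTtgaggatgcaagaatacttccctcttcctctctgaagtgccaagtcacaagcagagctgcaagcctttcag
F2rl2: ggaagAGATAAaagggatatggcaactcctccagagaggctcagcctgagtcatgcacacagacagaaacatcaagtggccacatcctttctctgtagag
The log2 fold change was 3.40 for Gp5 and 2.72 for F2rl2. A match describes the letters and is not a measured binding site.

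HSC transcription factors were shifted toward CD48− cells, with exceptions. Of 42 tested, 16 were higher and 2 lower, with a median log2 fold change of 0.17. Hlf (chromosome 11, 90336535 to 90390917), a PAR bZIP factor of HSC maintenance, measured 464, 467 and 453 CPM in the CD48− libraries and 256, 251 and 276 CPM in the CD48+ libraries (log2 fold change 0.82 ± 0.05, adjusted p = 3.37e-17). Mecom (chromosome 3, 29951296 to 30509759), which encodes Evi1, measured 384, 386 and 388 against 232, 226 and 235 CPM (log2 fold change 0.74 ± 0.05, adjusted p = 8.45e-16). Mllt3, a subunit of the super elongation complex that supports HSC self-renewal, measured 176, 174 and 176 against 87.97, 101 and 94.3 CPM (log2 fold change 0.89 ± 0.07, adjusted p = 1.76e-15). The groups were separate for all of these genes, by less than 2-fold in each. Gfi1 (chromosome 5, 107716655 to 107725805), a zinc finger repressor that restrains HSC division, was the only one of the list past 2-fold, at 91.2, 86.5 and 93.5 against 39.4, 37.5 and 36.3 CPM (log2 fold change 1.26 ± 0.08, adjusted p = 3.52e-17). Its paralogue Gfi1b went the other way at 12.5 ± 1.18 against 23.7 ± 2.46 CPM (log2FC −0.91, adjusted p = 9.98e-07). Prdm16 (log2FC 0.72, adjusted p = 2.8e-10), Nkx2-3 (log2FC 0.79, adjusted p = 4.15e-09) and Egr1 (log2FC 0.89, adjusted p = 1.86e-08) were higher, and Ikzf2 was lower (log2FC −0.34, adjusted p = 0.00246).

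Several factors tied to HSC identity did not pass. Meis1, a TALE homeobox partner of Hox proteins, measured 406 ± 3.77 against 436 ± 12.8 CPM (log2 fold change −0.10 ± 0.05, adjusted p = 0.133), with values on the lower side in CD48− cells. Runx1 (log2FC 0.10, adjusted p = 0.176), Erg (log2FC 0.06, adjusted p = 0.5), Myb (log2FC −0.09, adjusted p = 0.221), Foxo3 (log2FC 0.08, adjusted p = 0.318), Hmga2 (log2FC 0.03, adjusted p = 0.84) and Hoxb4 (log2FC 0.28, adjusted p = 0.131) likewise stayed above the threshold. Gata2 was called at 220.5 ± 6.83 against 193 ± 14.7 CPM (log2 fold change 0.19 ± 0.06, adjusted p = 0.0118), and the call was lost with DESeq2, with all 9 libraries in the fit and without CD48− replicate 1, CD48− replicate 2 or CD48+ replicate 3 (adjusted p from 0.0507 to 0.143).

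Of 39 tested surface and secreted genes of HSCs, 25 were higher and 6 lower, with a median of 0.43. Vwf, Itgb3, Cd9, Mmrn1 and Selp are also in the platelet list. The sorting antigens Procr, Ly6a and Slamf1, given above, are members too, and Procr and Ly6a are among the 25. Neo1, the netrin and repulsive guidance molecule receptor neogenin, measured 26.9, 26.1 and 24.6 CPM in the CD48− libraries and 3.02, 2.54 and 2.42 CPM in the CD48+ libraries (log2 fold change 3.28 ± 0.19, adjusted p = 1.48e-19). Clca3a1 (21.8, 17.5 and 18.8 against 1.42, 2.74 and 2.42 CPM, log2 fold change 3.14 ± 0.22, adjusted p = 2.06e-16) was separated to a like degree. Plxnc1, a semaphorin receptor, stood at 282 ± 12.4 against 146 ± 10.4 CPM (log2FC 0.94, adjusted p = 1.01e-17), Jam3, a junctional adhesion molecule, at 31.9 ± 3.6 against 14.9 ± 0.462 CPM (log2FC 1.09, adjusted p = 1.12e-09) and Tek, the angiopoietin receptor Tie2, at 46.4 ± 3.13 against 29.4 ± 4.998 CPM (log2FC 0.64, adjusted p = 6.52e-06). Fgd5 (log2FC 0.51, adjusted p = 3.13e-09), Eng (log2FC 0.49, adjusted p = 4.66e-08), Tie1 (log2FC 0.43, adjusted p = 2.07e-07), Esam (log2FC 0.51, adjusted p = 1.44e-06), Robo4 (log2FC 0.75, adjusted p = 2.67e-06), Itga6 (log2FC 0.37, adjusted p = 5.57e-07) and Ctnnal1 (log2FC 0.82, adjusted p = 6.59e-14) were also higher. The 6 lower genes were Cd34 and Cd244, given above, Thy1 (log2FC −0.89, adjusted p = 0.00459), Cxcr4 (log2FC −0.39, adjusted p = 0.00803), Itga4 (log2FC −0.19, adjusted p = 0.00502) and Cd47 (log2FC −0.13, adjusted p = 0.0493). The Cxcr4 call was lost with DESeq2 and without CD48− replicate 2 (adjusted p from 0.0712 to 0.0796), and the Cd47 call with DESeq2-type size factors in edgeR, with library size alone, with a minimum count of 30, with all 9 libraries in the fit and without CD48− replicate 1, CD48− replicate 2, CD48− replicate 3, CD48+ replicate 2 or CD48+ replicate 3 (adjusted p from 0.0503 to 0.27). Thy1 was not called with DESeq2 (adjusted p = 0.0635), nor Itga4 with all 9 libraries in the fit (adjusted p = 0.128). Over the whole platelet list, which moved with these genes, the summed level was 4326 to 4648 CPM in CD48− libraries and 2132 to 2195 CPM in CD48+ libraries, and its part in the HSC gene differences was not tested.

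**Figure D3:**
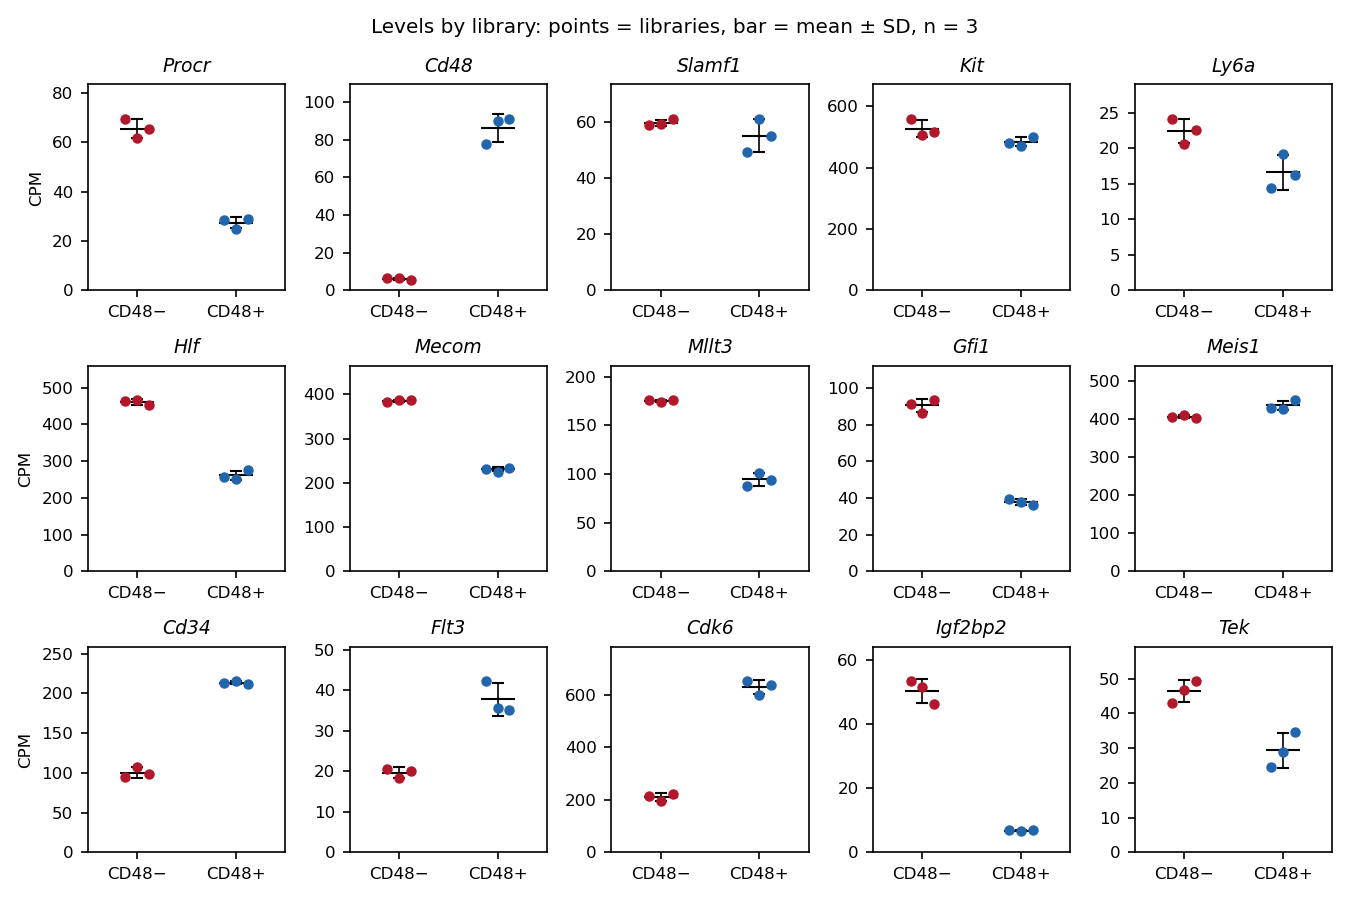
CPM by library for 15 genes, with 3 CD48− libraries in red, 3 CD48+ libraries in blue and a bar for the mean ± SD. Procr, Hlf, Mecom, Mllt3, Gfi1, Igf2bp2 and Tek lie higher in CD48− cells, Cd48, Cd34, Flt3 and Cdk6 lie higher in CD48+ cells, and Slamf1 overlaps.

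The thrombopoietin pathway was read because thrombopoietin was the main cytokine of the medium. Of 30 receptor, kinase and feedback genes, 12 were higher and 1 lower, with a median of 0.12. Of the feedback genes, Socs2, an inhibitor of cytokine signalling, measured 362, 368 and 378 against 282, 278 and 272 CPM (log2 fold change 0.41 ± 0.05, adjusted p = 2.11e-08), and Sh2b3, which encodes the signalling adaptor Lnk, measured 125, 108 and 113 against 92.8, 76.2 and 88.3 CPM (log2 fold change 0.43 ± 0.07, adjusted p = 1.02e-05). The STAT5 target Cish was not called (log2FC −0.08, adjusted p = 0.664), nor were Jak2 (log2FC 0.08, adjusted p = 0.353) and Stat5a (log2FC −0.10, adjusted p = 0.33). The shared beta chains of the IL-3 family receptors were higher, Csf2rb at 178 ± 10.4 against 122 ± 6.2 CPM (log2FC 0.55, adjusted p = 1.79e-09) and Csf2rb2 at 66.2 ± 3.19 against 30.03 ± 4.4 CPM (log2FC 1.14, adjusted p = 2.06e-13). These paralogues are near-identical, and the labels do not say how reads common to both were counted. Il6st, the gp130 chain, was higher as well (log2FC 0.40, adjusted p = 9.14e-06). A GAS motif (TTCNNNGAA, either strand) occurred in 16.7% of 24 promoters of the list and in 8.33% of those of all tested genes. By call, 2 of 8 higher members and 2 of 16 not called held it.

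Interferon response genes were higher in CD48− cells as a group. Of 51 tested, 36 were higher and 0 lower, with a median of 0.40 and 8 past 2-fold. The 8 include Gbp6 (44 counts in CD48− and 4 in CD48+ libraries) and Gbp9 (63 and 18). Both passed the count filter only through the group where they were high. Iigp1, an immunity-related GTPase, measured 41.1, 42.9 and 46.6 CPM in the CD48− libraries and 9.22, 8.8 and 10.7 CPM in the CD48+ libraries (log2 fold change 2.17 ± 0.13, adjusted p = 4.78e-19). The guanylate-binding proteins Gbp2 (54.7, 46.5 and 47.3 against 23.1, 23.3 and 26.6 CPM, log2 fold change 1.02 ± 0.11, adjusted p = 5.84e-11) and Gbp3 (103, 103 and 95.1 against 54.98, 57.9 and 47.4 CPM, log2 fold change 0.92 ± 0.08, adjusted p = 4.64e-13) were separated without overlap. Gbp5 (log2FC 0.96, adjusted p = 4.31e-11), Gbp7 (log2FC 0.47, adjusted p = 9.63e-08), Gbp6 (log2FC 3.71, adjusted p = 8.82e-07) and Gbp9 (log2FC 2.17, adjusted p = 1.55e-05) were called in the same direction, but these genes lie in clusters of close copies, so the split of reads between them is uncertain. Higher members among the antiviral effectors were Oas2 at 31.5 ± 0.801 against 14.8 ± 2.45 CPM (log2FC 1.09, adjusted p = 1.98e-09), Ifit1 at 11.7 ± 1.86 against 5.66 ± 0.331 CPM (log2FC 1.05, adjusted p = 3.71e-05), Isg15 at 5.47 ± 0.865 against 2.76 ± 0.418 CPM (log2FC 0.97, adjusted p = 0.00748) and Mx2 at 8.09 ± 0.507 against 3.62 ± 0.855 CPM (log2FC 1.17, adjusted p = 0.000188), whereas others such as Ifit2, Oasl1 and Eif2ak2 were not called. Of the signalling genes, Irf7 (22.5, 20.9 and 18.8 against 12.4, 14.5 and 15.4 CPM, log2 fold change 0.56 ± 0.14, adjusted p = 0.00164) was higher, whereas the receptor genes Ifnar1 (log2FC 0.14, adjusted p = 0.137) and Ifngr1 (log2FC −0.01, adjusted p = 0.912) and the factor Irf1 (log2FC 0.11, adjusted p = 0.321) were not called. The Isg15 call was lost with DESeq2 and without CD48− replicate 3 (adjusted p from 0.0581 to 0.095), and Ifnar1 was called without CD48− replicate 2 (adjusted p = 0.0483). Usp18, the feedback protease of the pathway, stood on the lower side without a call (log2FC −0.55, adjusted p = 0.0762).

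The interferon-stimulated response element core, searched on either strand, occurred in 55.3% of the 38 list promoters found in the table and in 3.84% of the promoters of the 8874 tested genes. It was in 18 of the 28 higher members and 3 of the 10 not called. A link between the element and the calls was not tested. The 100 bases before the start of Ifit1 (chr19:34640789-34640888, plus strand), Gbp2 (chr3:142620563-142620662, plus strand), Isg15 (chr4:156200819-156200918, minus strand) and Gbp3 (chr3:142559944-142560043, plus strand) are from the same RefSeq table. They are the 4 called members with the widest log2 fold change and a match in that stretch. Capitals mark the element, and neighbouring matches run together.
Ifit1: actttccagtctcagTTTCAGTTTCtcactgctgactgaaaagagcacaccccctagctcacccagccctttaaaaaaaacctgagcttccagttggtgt
Gbp2: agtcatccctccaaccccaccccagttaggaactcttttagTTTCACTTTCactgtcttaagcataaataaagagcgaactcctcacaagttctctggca
Isg15: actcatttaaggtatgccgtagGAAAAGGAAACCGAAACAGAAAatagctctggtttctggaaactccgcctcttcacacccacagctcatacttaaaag
Gbp3: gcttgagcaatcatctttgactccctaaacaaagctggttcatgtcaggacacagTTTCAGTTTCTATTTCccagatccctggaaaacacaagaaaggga
Isg15 holds 3 overlapping matches in its stretch and Gbp3 holds 2, while Ifit1 and Gbp2 hold 1 each. Their log2 fold changes lay between 0.92 and 1.05.

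Some antigen presentation genes are interferon targets. Of 22 tested in that list, 9 were higher and 1 lower. The class I heavy chains H2-K1 (891, 905 and 906 against 773, 725 and 753 CPM, log2 fold change 0.26 ± 0.05, adjusted p = 7.11e-05) and H2-D1 (664, 685 and 701 against 573, 556 and 566 CPM, log2 fold change 0.27 ± 0.05, adjusted p = 3.46e-05) were modestly higher. Cd74, the class II invariant chain, measured 96.7, 112 and 108 CPM in the CD48− libraries and 45.05, 30.3 and 32.6 CPM in the CD48+ libraries (log2 fold change 1.55 ± 0.10, adjusted p = 1.88e-12), with no overlap. The class II chain H2-Ab1 was not called (log2FC −0.55, adjusted p = 0.344), nor was the class I transactivator Nlrc5 (log2FC 0.08, adjusted p = 0.365). The lower gene was H2-Oa (log2FC −0.77, adjusted p = 0.0354), a call that was lost with DESeq2, with no count filter, with all 9 libraries in the fit and without CD48− replicate 1, CD48− replicate 2, CD48− replicate 3, CD48+ replicate 1 or CD48+ replicate 2 (adjusted p from 0.058 to 0.213).

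Cell cycle genes differed almost without exception, and by little per gene. Of 52 S phase and DNA replication genes, 48 were lower in CD48− cells and 0 higher. Of 60 G2 and M phase genes, 57 were lower and 0 higher. The medians were −0.43 and −0.43, and no member of either list was 2-fold lower. Mki67, the proliferation marker Ki-67, measured 2279, 2234 and 2162 CPM in the CD48− libraries and 3244, 3188 and 3132 CPM in the CD48+ libraries (log2 fold change −0.52 ± 0.06, adjusted p = 1.53e-10). Top2a, the DNA topoisomerase of dividing cells, measured 939, 966 and 955 against 1260, 1417 and 1330 CPM (log2 fold change −0.49 ± 0.05, adjusted p = 5.04e-10). Cdk1, the mitotic kinase, measured 86.1, 91.2 and 93.5 against 116, 145 and 146 CPM (log2 fold change −0.59 ± 0.08, adjusted p = 4.66e-08), and its cyclin Ccnb1 measured 68.2, 77.9 and 84.97 against 103, 125 and 117 CPM (log2 fold change −0.59 ± 0.08, adjusted p = 1.16e-07). All 4 were expressed in both groups and lower in every CD48− library than in any CD48+ library. In the replication list, Mcm10 (70.7 ± 2.25 against 121 ± 3.96 CPM, log2FC −0.78, adjusted p = 1.95e-12) and Ccne2 (19.4 ± 3.39 against 32.7 ± 2.44 CPM, log2FC −0.77, adjusted p = 2.41e-06) were among the most different, followed by Rrm2, a subunit of ribonucleotide reductase, and Hells, a chromatin remodeller, at −0.69 and −0.69. Pcna, the polymerase clamp, stood at 123 ± 7.36 against 163 ± 3.5 CPM (log2FC −0.40, adjusted p = 1.86e-06). The helicase subunit genes Mcm2 (log2FC −0.41, adjusted p = 1.42e-07) and Mcm7 (log2FC −0.52, adjusted p = 6.05e-11) were lower as well.

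Promoters of G2 and M phase genes are known for a pair of elements, the cell cycle genes homology region (TTTGAA) and CCAAT boxes. On either strand, TTTGAA occurred in 71.4% of 49 list promoters and in 14% of promoters of all tested genes, and CCAAT in 75.5% against 43.5%. By call, TTTGAA was in 34 of 47 lower members and CCAAT in 36 of 47, and each was in 1 of 2 not called. Cdk1 (chr10:69352913-69353012, minus strand), Kif11 (chr19:37376282-37376381, plus strand), Bub3 (chr7:131560270-131560369, plus strand) and Prc1 (chr7:80294376-80294475, plus strand) are from the same table. They were taken by the same rule, with both elements in the 100 bases before the start. Capitals mark the matches, and the motifs do not overlap each other there.
Cdk1: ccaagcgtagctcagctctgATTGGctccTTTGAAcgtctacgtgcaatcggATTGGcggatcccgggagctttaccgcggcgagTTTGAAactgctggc
Kif11: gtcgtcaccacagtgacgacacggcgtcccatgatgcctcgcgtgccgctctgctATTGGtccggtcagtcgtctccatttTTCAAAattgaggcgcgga
Bub3: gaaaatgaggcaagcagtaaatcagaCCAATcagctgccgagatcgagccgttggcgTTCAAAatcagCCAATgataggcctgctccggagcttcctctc
Prc1: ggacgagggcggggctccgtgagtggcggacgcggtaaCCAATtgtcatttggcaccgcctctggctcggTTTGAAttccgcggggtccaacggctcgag
These genes of mitotic entry, spindle motor, checkpoint and cytokinesis had log2 fold changes of −0.59, −0.56, −0.53 and −0.50, and the Bub3 call was lost with all 9 libraries in the fit (adjusted p = 0.05). In the replication list an E2F-type site (TTNGCGC, either strand) occurred in 42.9% of 42 promoters against 13.1% of all tested genes. By call, 16 of 38 lower members and 2 of 4 not called held it.

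Regulators of G1 and quiescence were mixed, with 14 of 40 higher, 7 lower and a median of 0.10. Besides Cdk6, the pocket protein gene Rbl1 (log2FC −0.38, adjusted p = 7.07e-07), Ccne1 (log2FC −0.67, adjusted p = 0.00109) and Cdk4 (log2FC −0.18, adjusted p = 0.0118) were lower. Ccnd1, cyclin D1, was higher at 24.3, 25.6 and 21.6 against 10.5, 4.69 and 7.55 CPM (log2 fold change 1.64 ± 0.17, adjusted p = 2.82e-10), in the opposite direction to its kinase Cdk6, while Ccnd2 was not called (log2FC 0.13, adjusted p = 0.0819). The Cdk4 call was lost with all 9 libraries in the fit and without CD48− replicate 1 or CD48+ replicate 3 (adjusted p from 0.0704 to 0.345). Both inhibitors Cdkn1a, which encodes p21 (28.7, 26.1 and 21.8 against 15.2, 14.5 and 14.96 CPM, log2 fold change 0.79 ± 0.13, adjusted p = 5.89e-06), and Cdkn1c, which encodes p57 (17.2, 21.7 and 18.6 against 9.22, 10.8 and 8.97 CPM, log2 fold change 0.98 ± 0.16, adjusted p = 1.91e-06), were higher. Cdkn1b, which encodes p27, was not called (log2FC −0.04, adjusted p = 0.765). Gadd45g, a stress-induced growth arrest gene, stood at 5.67 ± 0.341 against 1.2 ± 0.342 CPM (log2FC 2.23, adjusted p = 8.74e-07). Without CD48− replicate 1 the count of lower genes was 4.

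Genes that build ribosomes were lower in CD48− cells as well. Of 63 ribosome biogenesis genes, 43 were lower in CD48− cells and 0 higher, with a median of −0.30. Ncl, nucleolin, measured 2803, 2996 and 2811 CPM in the CD48− libraries and 3640, 4099 and 3508 CPM in the CD48+ libraries (log2 fold change −0.39 ± 0.06, adjusted p = 1.09e-06). The small nucleolar ribonucleoprotein genes Nop56 (295, 331 and 320.1 against 408, 433 and 409 CPM, log2 fold change −0.40 ± 0.05, adjusted p = 6.72e-08) and Fbl (51.9, 61.4 and 59.5 against 68.5, 74.5 and 75.6 CPM, log2 fold change −0.35 ± 0.08, adjusted p = 0.00103) were lower, as were Heatr1 (log2FC −0.42, adjusted p = 2.58e-07) and Utp20 (log2FC −0.39, adjusted p = 2.71e-07), which process pre-ribosomal RNA. Several of these genes host small nucleolar RNAs in their introns, and strand use was not stated. With all 9 libraries in the fit, the count of lower genes was 22, and the calls for Ncl, Npm1 and Wdr43 were lost. Myc, the transcription factor known to drive these genes, measured 106, 110.3 and 112 against 176, 163 and 178 CPM and was lower (log2 fold change −0.66 ± 0.06, adjusted p = 1.22e-11). Its relative Mycn was higher at 501 ± 12.6 against 406 ± 12.3 CPM (log2FC 0.30, adjusted p = 7.98e-06).

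Of 80 cytosolic ribosomal protein genes, 8 were higher and 4 lower, under the 29.0% called among all genes, with a median of −0.01. Rps27 was the highest of those called, at 147 ± 5.22 against 116 ± 7.19 CPM (log2FC 0.34, adjusted p = 4.81e-05), and Rplp0 was not called at 1493 ± 88.0 against 1462 ± 16.5 CPM (log2FC 0.03, adjusted p = 0.728). None of the 80 was called with all 9 libraries in the fit. The higher count was 4 without CD48− replicate 3 and 5 without CD48+ replicate 1, and the lower count ran from 0 without CD48− replicate 1 to 11 without CD48+ replicate 1. Of 75 respiratory chain genes encoded in the nucleus, 12 were lower and 0 higher, with a median of −0.13. The 16% called lower was near the 13.7% among all tested genes. Complex I subunits Ndufc1 (42.5 ± 5.16 against 63.6 ± 7.67 CPM, log2FC −0.60, adjusted p = 3.23e-06), Ndufa10 (log2FC −0.31, adjusted p = 0.00034) and Ndufab1 (log2FC −0.31, adjusted p = 0.00226) were among those lower. The lower count was 4 without CD48− replicate 1 and 20 without CD48+ replicate 1, and 1 gene was higher without CD48+ replicate 3. Of 13 mitochondrially encoded genes 2 were lower, mt-Nd1 (log2FC −0.17, adjusted p = 0.0292) and mt-Nd5 (log2FC −0.17, adjusted p = 0.0225). That share, 15.4%, was also near the 13.7% lower among all tested genes. The count ran from 0 to 5 when a library was left out, with 0 without CD48− replicate 1 or 3 or CD48+ replicate 2, 1 without CD48+ replicate 3 and 5 without CD48+ replicate 1.

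**Figure D4:**
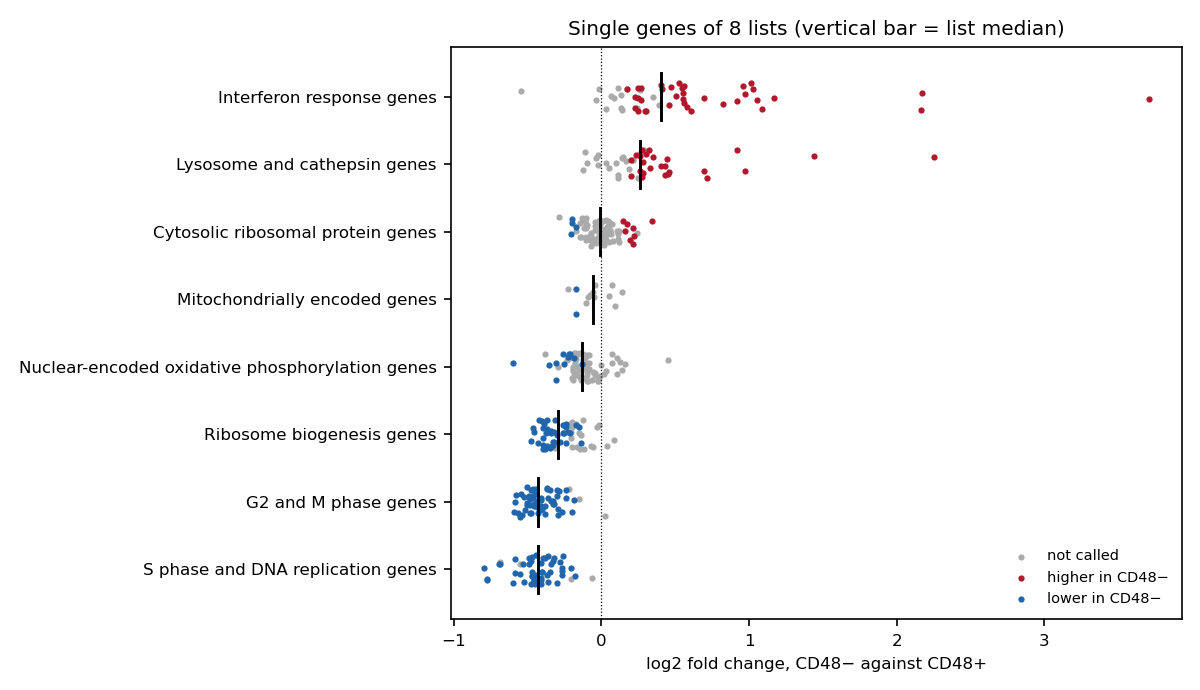
Each point is a tested gene of 1 of 8 lists, placed on the x axis by its log2 fold change of CD48− against CD48+ cells, with called genes in red (higher) or blue (lower), uncalled genes in grey and the list median as a vertical bar. Replication, mitosis and ribosome biogenesis genes form tight groups left of 0, ribosomal protein and mitochondrially encoded genes centre near 0, and interferon and lysosome genes spread to the right.

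Of 46 lysosome and cathepsin genes, 25 were higher and 0 lower, and the median was 0.26. Atp6v0a1, a subunit of the proton pump that acidifies lysosomes, measured 50.1 ± 1.93 against 26.6 ± 0.777 CPM (log2 fold change 0.92 ± 0.10, adjusted p = 3.02e-10). Of the proteases, Ctsl (39.1 ± 5.99 against 23.6 ± 3.45 CPM, log2FC 0.70, adjusted p = 7.55e-06), Ctsh (5.93 ± 0.679 against 1.21 ± 0.783 CPM, log2FC 2.25, adjusted p = 1.2e-06), Ctsf (log2FC 1.44, adjusted p = 4.07e-05) and Ctss (log2FC 0.97, adjusted p = 6.77e-06) were higher, and Ctsb was not called (log2FC 0.14, adjusted p = 0.095). Lamp1, a main membrane protein of the organelle, stood at 134 ± 3.43 against 108 ± 2.17 CPM (log2FC 0.30, adjusted p = 0.000296), and Psap, the saposin precursor, at 264 ± 7.05 against 210.3 ± 9.2 CPM (log2FC 0.33, adjusted p = 8.22e-06). The transcription factor genes Tfeb (log2FC 0.26, adjusted p = 0.171) and Tfe3 (log2FC −0.03, adjusted p = 0.837), which drive lysosome genes, were not called. Mitf was called (log2FC 0.45, adjusted p = 0.0396), and lost with DESeq2, with no count filter, with all 9 libraries in the fit and without CD48− replicate 1, CD48− replicate 3, CD48+ replicate 2 or CD48+ replicate 3 (adjusted p from 0.0541 to 0.321). With all 9 libraries in the fit 16 members were higher.

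Metabolic lists were mixed. In glycolysis 5 of 26 genes were higher and 7 lower. The glucose transporter Slc2a3 (267, 242 and 243 against 168, 175 and 165 CPM, log2 fold change 0.57 ± 0.06, adjusted p = 6.5e-11), hexokinase 2 gene Hk2 (log2FC 0.33, adjusted p = 3.75e-05) and Ldhb (54.2 ± 2.82 against 28.1 ± 2.37 CPM, log2FC 0.94, adjusted p = 1.21e-10) were higher, and the enzymes Pgk1 (log2FC −0.33, adjusted p = 1.58e-05) and Pgam1 (log2FC −0.28, adjusted p = 0.000662) were lower. Pkm was not called (log2FC 0.02, adjusted p = 0.866). In cholesterol synthesis and uptake 1 of 25 was higher and 3 were lower. Srebf2, the transcription factor of the pathway, was higher (log2FC 0.23, adjusted p = 0.00137), a call that was lost with all 9 libraries in the fit (adjusted p = 0.135). The synthesis enzyme genes Fdps (log2FC −0.27, adjusted p = 0.00249) and Hmgcs1 (log2FC −0.14, adjusted p = 0.0462) were lower, and the Hmgcs1 call was lost with DESeq2, with library size alone, with a minimum count of 30, with all 9 libraries in the fit and without CD48− replicate 1, CD48− replicate 2, CD48− replicate 3 or CD48+ replicate 3 (adjusted p from 0.0636 to 0.248).

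Adhesion and matrix genes, some of them shared with the platelet list, also differed. Of 50 tested, 28 were higher and 6 lower, with a median of 0.33 and 13 higher by 2-fold or more. Vcan, the matrix proteoglycan versican, measured 74.04, 72.9 and 71.4 CPM in the CD48− libraries and 6.03, 4.89 and 4.27 CPM in the CD48+ libraries (log2 fold change 3.85 ± 0.13, adjusted p = 1.26e-28). Col18a1, a basement membrane collagen, measured 87.2, 84.1 and 83.4 against 34.2, 28.5 and 30.1 CPM (log2 fold change 1.46 ± 0.09, adjusted p = 1.6e-18), and Lamb2, a laminin chain, measured 49.5, 44.4 and 45.2 against 19.1, 13.7 and 15.2 CPM (log2 fold change 1.54 ± 0.12, adjusted p = 5.66e-15). The tetraspanin gene Tspan7 stood at 21.7 ± 3.37 against 5.72 ± 0.665 CPM (log2FC 1.92, adjusted p = 7.67e-13), the integrin chain genes Itgb5 at 60.97 ± 3.93 against 33.5 ± 3.6 CPM (log2FC 0.86, adjusted p = 4.93e-10) and Itga3 at 12.6 ± 1.65 against 5.7 ± 1.83 CPM (log2FC 1.15, adjusted p = 1.68e-05), and the membrane protease gene Mmp14 at 3.38 ± 0.733 against 0.504 ± 0.129 CPM (log2FC 2.65, adjusted p = 1.57e-05). Lower members included the LFA-1 chain Itgal (log2FC −0.60, adjusted p = 0.00134), the tetraspanin Cd37 (log2FC −0.48, adjusted p = 0.000161) and Emilin2 (log2FC −0.84, adjusted p = 1.78e-10). The widely expressed beta 1 integrin chain Itgb1 was not called (log2FC −0.03, adjusted p = 0.715).

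Ltbp1, above, is also a member of the TGF-beta and BMP list, where 12 of 28 were higher and 1 lower around a median of 0.13. TGF-beta holds HSCs out of cycle in marrow. Lrrc32, which encodes the latent TGF-beta receptor GARP of platelets and regulatory T cells, stood at 4.43 ± 0.292 against 0.646 ± 0.292 CPM (log2FC 2.80, adjusted p = 5.64e-07). The receptor genes Tgfbr2 (93.05, 80.2 and 85.2 against 55.2, 62.6 and 61.7 CPM, log2 fold change 0.53 ± 0.08, adjusted p = 7.38e-07), Tgfbr3 (log2FC 0.35, adjusted p = 1.52e-06), Bmpr2 (log2FC 0.33, adjusted p = 6.74e-06) and Eng were higher, and Tgfbr1 was not called (log2FC 0.01, adjusted p = 0.929). The feedback inhibitor genes Smad7 (13.8 ± 1.52 against 6.97 ± 1.93 CPM, log2FC 1.00, adjusted p = 4.17e-05) and Smad6 (11.3 ± 1.34 against 7.12 ± 1.62 CPM, log2FC 0.67, adjusted p = 0.00623) were higher, the latter not with DESeq2, with all 9 libraries in the fit and without CD48− replicate 1 (adjusted p from 0.0634 to 0.1). Tgfb1 (log2FC −0.12, adjusted p = 0.114), Smad3 (log2FC 0.10, adjusted p = 0.314) and the BMP target Id1 (log2FC −0.07, adjusted p = 0.715) were not called. Acvr1b was the lower gene (log2FC −0.46, adjusted p = 4.67e-05).

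Among imprinted genes, which are expressed from 1 parental allele and several of which are linked to HSC quiescence, 15 of 31 could be tested, 11 were higher and 0 lower, with a median of 0.88. Peg10 measured 31.4, 31.9 and 27.6 against 9.22, 8.8 and 8.4 CPM (log2 fold change 1.78 ± 0.14, adjusted p = 1.16e-14). Peg3 (10.6, 10.7 and 13.1 against 3.72, 5.47 and 3.42 CPM, log2 fold change 1.47 ± 0.22, adjusted p = 6.61e-07) and the growth factor scavenging receptor gene Igf2r (26.3, 23.5 and 18.6 against 9.93, 10.2 and 9.97 CPM, log2 fold change 1.20 ± 0.15, adjusted p = 1.17e-08) were separated as well, and each overlaps an antisense transcript (Peg3os, Airn). H19, a growth-limiting non-coding RNA, had 93 counts in the CD48− libraries and 3 in the CD48+ libraries, which gives a ratio of 40.4 (95% counting interval 13.4 to 199). Dlk1 (log2FC 0.88, adjusted p = 0.00214) and Meg3 (log2FC 1.78, adjusted p = 0.0027) from the same imprinted cluster were higher, and Grb10, a receptor adaptor, stood at 396 ± 2.75 against 281 ± 6.18 CPM (log2FC 0.50, adjusted p = 1.53e-10). Gnas was not called (log2FC 0.08, adjusted p = 0.26). The Dlk1 call was lost with all 9 libraries in the fit (adjusted p = 0.0562).

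Fetal-type RNA-binding and chromatin genes followed in part, with 5 of 8 higher and 1 lower. Igf2bp2, which binds and stabilises mRNAs, measured 53.4, 51.5 and 46.2 CPM in the CD48− libraries and 6.92, 6.65 and 6.84 CPM in the CD48+ libraries (log2 fold change 2.89 ± 0.13, adjusted p = 2.11e-23), the widest separation of the list. Hmga1 (218, 246 and 224 against 180.5, 153 and 148 CPM, log2 fold change 0.51 ± 0.07, adjusted p = 3.53e-08) and Arid3a (29.9 ± 0.725 against 18.6 ± 4.02 CPM, log2FC 0.68, adjusted p = 3.61e-05) were higher. Lin28b, the fetal repressor of let-7 processing, stood at 17.3 ± 1.39 against 11.4 ± 2.37 CPM (log2FC 0.62, adjusted p = 0.00237), a call that was lost with DESeq2 and without CD48+ replicate 3 (adjusted p from 0.057 to 0.0608). Ezh2, the Polycomb methyltransferase, was lower at 204 ± 9.37 against 258 ± 9.69 CPM (log2FC −0.33, adjusted p = 8.26e-06). Hmga2 was not called.

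Of the homeobox A and B cluster genes 9 of 21 were tested, with 4 higher and 0 lower. Among the tested genes, the 3 higher by at least 2-fold were neighbours in the B cluster. Hoxb8 measured 9.51, 12.3 and 9.65 against 2.13, 0.587 and 1.71 CPM (log2 fold change 2.75 ± 0.29, adjusted p = 1.22e-10). Hoxb9 measured 13.5, 12.02 and 13.3 against 2.48, 1.96 and 1.99 CPM (log2 fold change 2.59 ± 0.24, adjusted p = 2.35e-12). Hoxb7 stood at 4.26 ± 0.895 against 1.37 ± 0.368 CPM (log2FC 1.56, adjusted p = 0.000609). Hoxb7 and Hoxb8 passed the count filter only through the group where they were high. Hoxb4 of the same cluster was not called (log2FC 0.28, adjusted p = 0.131), and its other members were not tested. In the A cluster Hoxa9 was called at 63.7 ± 4.97 against 52.8 ± 6.21 CPM (log2FC 0.28, adjusted p = 0.0152). That call was lost with DESeq2, with all 9 libraries in the fit and without CD48− replicate 1, CD48− replicate 3 or CD48+ replicate 1 (adjusted p from 0.0518 to 0.13). Hoxa7 (log2FC 0.20, adjusted p = 0.103) and Hoxa10 (log2FC 0.26, adjusted p = 0.182) were not. Hoxa7 was called with library size alone and without CD48+ replicate 1 (adjusted p from 0.0267 to 0.049).

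Immediate early genes, which respond within minutes to stimulation or handling, were shifted toward CD48− cells, with exceptions. Of 28 tested, 9 were higher and 3 lower, with a median of 0.25. Positive log2 fold changes were found for 22 of them (78.6%, against 49.1% of all tested genes). Egr1 and Nr4a1 count as higher both here and in the list of HSC transcription factors. Fos (22.3 ± 1.62 against 21.2 ± 1.84 CPM, log2FC 0.07, adjusted p = 0.73) and Jun (72.1 ± 6.87 against 71.2 ± 6.88 CPM, log2FC 0.03, adjusted p = 0.811) were not called, whereas Egr1 (47.5, 36.1 and 42.3 against 23.1, 19.8 and 25.1 CPM), Fosl2 (log2FC 0.84, adjusted p = 2.04e-06), Ier5 (log2FC 0.48, adjusted p = 1.85e-05) and Nfkbia (log2FC 0.39, adjusted p = 5.36e-05) were higher. Cd69 was lower (log2FC −0.64, adjusted p = 6.62e-07).

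Genes of other lineages were read both as priming and as a check for other cells in the gate. Of the granulocyte and monocyte progenitor list 18 of 26 were tested, 5 were higher and 4 lower. Lyz2, lysozyme M, was higher at 139.9 ± 8.79 against 92.5 ± 3.73 CPM (log2FC 0.60, adjusted p = 1.6e-09). The G-CSF receptor gene Csf3r was lower at 68.4 ± 2.67 against 91.9 ± 6.27 CPM (log2FC −0.42, adjusted p = 2.47e-05). Csf1r (log2FC 0.24, adjusted p = 0.636) and Irf8 (log2FC 0.17, adjusted p = 0.707) were not called. Mpo, which was not tested, had 0 counts in CD48− and 22 in CD48+ libraries. With a floor of 3 counts for the CD48− group the level was at least 5.63-fold lower there. That value is a bound set by the floor and has no interval. Elane had 0 in all. The higher count of this list was 3 with DESeq2, with all 9 libraries in the fit and without CD48− replicate 1. Of 25 mature neutrophil and macrophage genes 3 reached the filter, all higher (Cd68, Ltf and Padi4). Their number was 0 with DESeq2 and 1 without CD48− replicate 3, CD48+ replicate 2 or CD48+ replicate 3, and S100a8, S100a9, Ly6g, Retnlg, Marco and Fcnb were at 0 counts in all 6 libraries.

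In the lymphoid list, 6 of 15 tested genes were higher and 3 lower. Flt3, the cytokine receptor of lymphoid-primed progenitors, measured 20.7, 18.3 and 20.2 CPM in the CD48− libraries and 42.4, 35.8 and 35.2 CPM in the CD48+ libraries (log2 fold change −0.93 ± 0.12, adjusted p = 1.27e-08), so every CD48− library lay below every CD48+ library. Notch1 (log2FC 0.50, adjusted p = 3.78e-05), Ltb (log2FC 0.76, adjusted p = 1.24e-12) and Gimap6 (log2FC 0.34, adjusted p = 1.64e-06) were higher. Nkg7 (1.62 ± 1.15 against 6.29 ± 0.91 CPM, log2FC −1.84, adjusted p = 1.89e-05) was lower. Rag1, Rag2, Cd3e, Cd3g, Cd79a and Cd2 were at 0 counts. Of the mast cell and basophil list 8 of 20 were tested and 4 were higher, namely Slc6a4, Rab27b, Gata2 and Gzmb (4.73 ± 1.61 against 1.71 ± 0.267 CPM, log2FC 1.44, adjusted p = 0.000857). Slc6a4 and Rab27b are platelet genes too. Cpa3, the mast cell carboxypeptidase, was not called (log2FC −0.42, adjusted p = 0.508). Cma1, Mcpt4 and Tpsb2 were at 0.

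Red cell genes were split, with 3 of 9 higher and 2 lower. Beside Gata1, the adult beta globin gene Hbb-bt was higher at 214 ± 13.8 against 143 ± 7.2 CPM (log2FC 0.58, adjusted p = 1.38e-10), with reads it may share with Hbb-bs, and the transferrin receptor gene Tfrc (log2FC −0.29, adjusted p = 0.000609) and Hemgn (log2FC −0.45, adjusted p = 2.68e-05) were lower. Car1 and Hba-a1 were at 0 counts and Klf1 had 9 in CD48− and 7 in CD48+ libraries. Leaving out CD48+ replicate 1 raised the higher count to 5, and a minimum count of 30 left 1. Endothelial and stromal genes were 4 higher and 3 lower of 8 tested. Cdh5, VE-cadherin, stood at 8.72 ± 1.22 against 2.62 ± 0.197 CPM (log2FC 1.71, adjusted p = 5.42e-07) and Pdgfrb at 5.36 ± 1.86 against 18.4 ± 2.1 CPM (log2FC −1.73, adjusted p = 3.14e-10). Pecam1 was not called (log2FC 0.11, adjusted p = 0.286). Dcn and Lum were at 0. The higher count of this list was 2 with DESeq2 and without CD48− replicate 1.

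**Figure D5:**
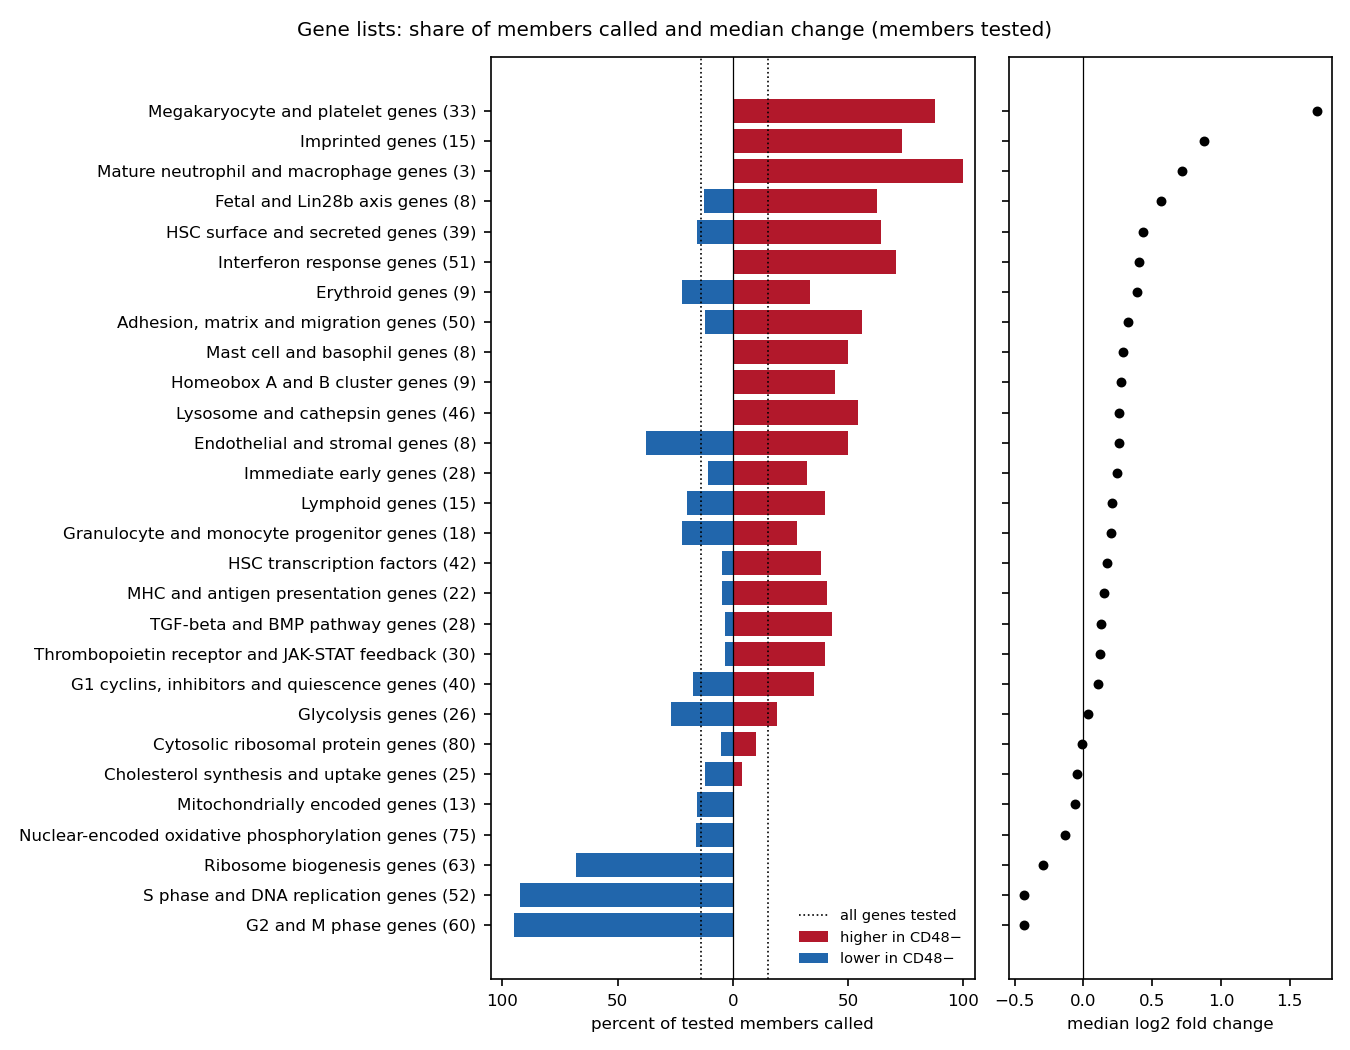
Left, the percent of tested members called higher (red, right) or lower (blue, left) in CD48− cells for 28 gene lists, with the number tested in brackets and dotted lines at the shares of all tested genes (15.3% and 13.7%). Right, the median log2 fold change of each list, which runs from −0.43 for G2 and M phase genes to 1.70 for megakaryocyte and platelet genes.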

How the data were processed

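Per the labels' protocols, sorted pools were lysed in Trizol LS, SMARTer reagents made the cDNA, and an Illumina NextSeq read paired ends of 36 nt. The authors deposited raw counts, as whole numbers by gene symbol, for 49585 genes. The submitters' processing notes name mm10 and DESeq2, without versions, but no source used here gives the aligner, counter, annotation, strand setting or treatment of shared reads. Another table of values scaled by size factors was not used. The counts include 3 columns that matched no sample and were left out.

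Samples were grouped by sort label. The 6 libraries were fitted alone with edgeR 4.0.16 in R 4.3.3: genes kept by filterByExpr at its default minimum count of 10 (11527 genes), TMM factors, glmQLFit (robust) with group as the only factor, glmQLFTest, and Benjamini-Hochberg adjustment over all tested genes with a threshold of 0.05. The SE of a log2 fold change was taken as its size over the root of the F statistic. Principal components used log2 CPM with a prior count of 2. The common biological coefficient of variation was 5.07%. The code was tested on simulated data. Alternatives were DESeq2 1.42.0, other scalings and count filters, all 9 libraries in the fit, a replicate block, a 2-fold threshold and each library left out.

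The comparison and the 29 gene lists, from general knowledge, were chosen with earlier results of these data known. Lists are described by counts and medians, with no set test. The genes named are those of the sorted antigens, the 15 higher and 15 lower called genes with the largest change (replicates apart, a mean of 10 CPM or more where higher, no predicted or clone symbol), the 10 with the smallest p each way, set key members of each list and up to 6 members with the smallest p, which gave 246 genes. A further 63 list members were added after their values were seen. A few of all these genes are not reported here. Coordinates and promoters (250 bases before to 50 after the start) are RefSeq's on GRCm38.p6, the assembly of mm10, and 10983 tested symbols (95.3%) matched. Of the genes named, 122 share bases with another annotated gene, such as Cdk6, Cd34, Slc22a3, F13a1, Mecom, Vcan, Slc6a4, Ltbp1 and Clec1b, and their counts are less certain. The same holds for Gbp, Oas1, Serpinb and Hbb family members with close copies. Intervals of ratios use counts pooled over the libraries of a group, so they cover counting error only and leave out the spread between libraries. The sources used here state no molecular identifiers for the reads. The floor used for Mpo has no interval. Plots came from matplotlib 3.10.9 (Python 3.11.15).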

Additional observations from a re-analysis of the deposited data

How the results depend on the processing

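No call of a named gene changed direction, and the medians of 2 lists, ribosomal protein and glycolysis genes, changed sign in at least 1 alternative. Of 244 named genes called, 199 were called the same way in every alternative that tested them and 45 lost the call in at least 1. Some low-count genes, such as Gata1, were tested in 12 of the 13 alternatives. Of 65 uncalled genes, 15 gained a call. Whole-comparison counts were 1036 higher and 1039 lower with DESeq2, 1052 and 733 with all 9 libraries in the fit, 381 and 55 at a 2-fold threshold, and 1415 to 1808 higher and 1212 to 1673 lower with a library left out. At 2-fold, 220 were higher and 33 lower with a minimum count of 30, and 88 lower with no filter. With library size alone the higher share of calls was 62.7% against 52.8%, and the median of all genes 0.03.

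Members called by list were as follows. With DESeq2, sorted antigens higher were 1, thrombopoietin pathway lower 0, granulocyte and monocyte higher 3, neutrophil and macrophage higher 0, MHC lower 0, immediate early higher 5, oxidative phosphorylation lower 4, mitochondrially encoded lower 1, endothelial higher 2 and fetal higher 3. Library size alone gave oxidative phosphorylation lower 6 and mitochondrially encoded lower 0. No filter gave MHC lower 0 and ribosomal protein lower 8. A minimum count of 30 gave thrombopoietin pathway lower 0, erythroid higher 1 and MHC lower 0. All 9 libraries gave sorted antigens higher 1, granulocyte and monocyte higher 3, neutrophil and macrophage higher 1, MHC lower 0, G1 higher 9 and lower 4, ribosome biogenesis lower 22, ribosomal protein higher 0 and lower 0, oxidative phosphorylation lower 4, mitochondrially encoded lower 0, glycolysis lower 3, cholesterol higher 0 and lysosome higher 16. The causes were not tested.

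With a library left out, the higher count ran from 1 to 2 for sorted antigens, 3 to 5 for granulocyte and monocyte, 1 to 3 for neutrophil and macrophage, 2 to 5 for erythroid, 4 to 9 for ribosomal protein, 0 to 1 for oxidative phosphorylation and 2 to 5 for endothelial genes. The lower count ran from 0 to 1 for MHC, 4 to 6 for G1, 0 to 11 for ribosomal protein, 4 to 20 for oxidative phosphorylation and 0 to 5 for mitochondrially encoded genes. Ly6a ran from 0.36 to 0.55, and stood at 0.44 with DESeq2 (adjusted p = 0.119) and 0.45 with all 9 libraries (adjusted p = 0.161), both uncalled. Kit was called with library size alone (0.16, adjusted p = 0.0168).

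The labels do not say whether same-numbered libraries belong together. Their deviations from the group means correlated at −0.00577, 0.0336 and −0.025, and 1 of the 3 correlated best with its own number. With so few libraries, these values cannot show whether a number marks a shared origin. With the replicate block 3509 genes were called, 3307 of them shared with the 3339 called without it, ribosomal protein genes lower were 7, and Kit was called (0.12, adjusted p = 0.0351). Depth limits the genes near the count filter, where few counts in one group leave wide intervals.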

Other observations

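The third population of the series, CD201− cells cultured under the same conditions, gives the platelet genes a further point of reference, described here without a test. The sample titles call these cells CD201−CD150+CD48+KSL, so by title they are CD48+, whereas the design text gives CD201−KSL. On a scale common to all 9 libraries, 25 of the 29 platelet genes higher in CD48− than in CD48+ cells had a CD201− mean above that of CD48+ cells, and 3 had one above that of CD48− cells. Itga2b, which encodes CD41, had a mean of 298 CPM in CD201+CD48−, 79.03 CPM in CD201+CD48+ and 357 ± 16.7 CPM in CD201− cells. Vwf had its lowest mean in CD201− cells, 65.6 ± 8.61 CPM against 714 and 125 CPM. Thbs1 stood at 26.7 ± 3.04 CPM in CD201− cells, between 149.7 CPM in CD48− and 2.5 CPM in CD48+ cells. The order of the 3 populations was not the same for every platelet gene.

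Members of a pair sometimes moved in opposite directions. The log2 fold change was 1.26 for Gfi1 and −0.91 for Gfi1b, 1.64 for Ccnd1 and −1.58 for Cdk6, and 0.30 for Mycn and −0.66 for Myc, all called. These pairs were chosen after their values were seen.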
